A study of Rattus norvegicus with 4 samples.

Results

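The transcripts described here encode muscle ubiquitin ligases, calpains with their inhibitor calpastatin, and lysosomal cathepsins, which together stand for 3 routes by which muscle protein is broken down. They were chosen by gene symbol: Trim63 and Fbxo32 for the ligases, Capn1, Capn2, Capn3 and Cast for the calpain system, and Ctsb, Ctsd, Ctsl and Ctsh for the cathepsins. Of these 10 genes, 9 had a probe set in the annotation used, with 18 probe sets of the 8799 on the array. No probe set was annotated to Fbxo32, which was therefore not analysed here.

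RNA was taken from female rats and read on Affymetrix arrays; the muscle was the soleus, which bears weight in the hindlimb and is rich in slow fibres. The comparison asks which transcripts differ after repeated daily inactivity. Control rats (2 pools) were caged with normal standing and walking. Unloaded rats (2 pools) could not stand on the hindlimbs during 10 h a day, and this went on for 11 days. Each of the 4 arrays read a mixture of RNA from 4 to 5 rats, so the spread shown is that between pools, and p-values measure no spread between single animals. The labels give neither strain nor age.

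Muscle loses protein through several systems that work side by side. Ubiquitin ligases tag proteins for the proteasome, and Trim63 (also called Murf1) and Fbxo32 (Atrogin1) are ligases known for their rise in many forms of muscle wasting. Calpains are calcium-activated proteases of the cytosol that cut a few sites in structural proteins, and calpastatin, encoded by Cast, blocks the ubiquitous calpains. Cathepsins are proteases of the lysosome, which receives cargo through autophagy and endocytosis. FoxO transcription factors, held in check by insulin signalling, are known activators of the muscle ligases, and TFEB is a known activator of lysosomal genes.

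In the unloaded soleus, both Trim63 probe sets and 1 of 5 Cast probe sets were called lower. No calpain or cathepsin probe set passed the test. On 3 of the 5 Cast probe sets, the called one included, both unloaded pools lay below both controls. Ctsl, Ctsb and Ctsh, and 1 of 2 Ctsd probe sets, had both unloaded pools above both control pools without passing. Values are MAS5 signals in intensity units, as mean ± SD (n = 2 pools in each group). A log2 fold change is the unloaded minus the control mean of log2(signal + 9), given with its standard error (SE) and limma's p-value after Benjamini-Hochberg adjustment over all 5257 tested probe sets, called at 0.05. All 18 probe sets passed the filter on dim signals. Calls were made for 3 of the 18, all lower, where 5.25% of all tested probe sets were called (2.66% lower and 2.59% higher). Pools did not overlap between groups in 11 of the 18, against 50.8% of all tested probe sets. An exact permutation test of 2 pools against 2 cannot give a two-sided p below 0.333. The number of arrays limits the precision.

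The labelled tissue carried its slow-fibre markers. Myh7, the slow myosin heavy chain, gave 9534 to 11198 units on X15939_f_at, and whether this probe set also reads related transcripts was not tested. The summed signal of 8 genes listed as slow-fibre markers was 55315 to 55657 in controls and 51774 to 57991 in unloaded pools. Ckm and Acta1, which are not particular to slow fibres, are part of that sum. Each marker gene was counted by its brightest probe set, and its other probe sets were left out here. None of the markers of slow fibres, leukocytes, fibroblasts, endothelium, adipocytes or blood that could be tested was called on that probe set. Over the 4 blood genes the sum was 6829 to 7201 in controls and 7697 to 7951 in unloaded pools, and over the 4 endothelial genes it was 369.8 to 371.5 and 315.7 to 342.6. Their part in the results below was not tested. The ratio of 3' to 5' signal, a sign of RNA integrity, was 1.15 and 1.20 for beta-actin in controls and 1.14 and 1.11 in unloaded pools, and 0.949 to 1.01 for GAPDH over the 4 arrays.

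Promoter sequences of 4 members are shown because the regulators named above are known to act through such regions: Trim63 and Cast as the genes with a call, and Ctsl and Ctsd as cathepsins. Each is the 250 bases before the transcript start, 5′ to 3′ on the gene's strand, from RefSeq on the rat assembly GRCr8. Capitals mark matches to any of 3 motifs.
Trim63, chr5:151816986-151817235, plus strand: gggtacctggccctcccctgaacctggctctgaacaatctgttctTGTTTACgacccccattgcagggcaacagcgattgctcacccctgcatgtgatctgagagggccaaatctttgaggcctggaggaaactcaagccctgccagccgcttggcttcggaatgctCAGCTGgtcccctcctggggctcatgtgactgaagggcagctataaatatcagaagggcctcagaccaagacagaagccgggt
Cast, chr2:5816987-5817236, minus strand: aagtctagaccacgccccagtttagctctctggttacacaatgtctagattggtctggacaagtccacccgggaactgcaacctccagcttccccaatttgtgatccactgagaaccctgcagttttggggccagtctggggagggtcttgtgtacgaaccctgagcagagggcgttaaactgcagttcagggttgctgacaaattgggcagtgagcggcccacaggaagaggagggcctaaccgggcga
Ctsl, chr17:769854-770103, plus strand: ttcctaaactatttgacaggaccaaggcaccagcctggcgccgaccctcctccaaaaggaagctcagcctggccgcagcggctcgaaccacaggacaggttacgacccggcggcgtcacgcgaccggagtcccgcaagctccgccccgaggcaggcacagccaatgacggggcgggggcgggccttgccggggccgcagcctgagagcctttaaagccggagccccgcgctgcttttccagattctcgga
Ctsd, chr1:206968822-206969071, minus strand: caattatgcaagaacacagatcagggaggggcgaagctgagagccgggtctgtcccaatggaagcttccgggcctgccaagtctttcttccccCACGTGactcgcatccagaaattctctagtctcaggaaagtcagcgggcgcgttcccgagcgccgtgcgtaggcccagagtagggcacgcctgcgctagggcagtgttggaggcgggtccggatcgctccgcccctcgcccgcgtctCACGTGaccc

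The motifs searched on both strands were the FoxO-type TGTTTAC, the E-box CACGTG that TFEB can bind, and the E-box CAGCTG that myogenic factors can bind. Both E-boxes read the same on either strand, and no 2 matches overlapped in these promoters. Promoters were found for 7 of the 10 genes. In Trim63 the FoxO-type match lay 205 to 199 bases before the start and the CAGCTG match 83 to 78 bases before it. Ctsd held CACGTG 157 to 152 and 10 to 5 bases before its start. These letters were not in the windows of the 5 other promoters, those of Cast and Ctsl among them. Among all 33469 promoters of the same length, 3.21% held the FoxO-type letters, 5.59% CACGTG and 12.0% CAGCTG. A match is a description of letters and not of binding.

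The ligase Trim63 fell on both probe sets. The brighter one (rc_AI639465_f_at) gave 911 and 769.2 units in the control pools and 528.7 and 579.5 in the unloaded pools. Both unloaded pools lay below both controls, and the mean fell by 34.0%, with means of 840.1 ± 100.3 and 554 ± 35.9 (difference -0.59 log2, SE 0.11, adjusted p = 0.0262). The dimmer one (rc_AI639465_r_at) gave 59.5 and 69.1 in controls against 34.5 and 33.8 in unloaded pools. Here too the groups did not overlap, and the mean fell by 46.9%, from 64.3 ± 6.79 to 34.15 ± 0.495 (-0.76, SE 0.16, adjusted p = 0.0384). In bulk RNA, fewer cells of a type and less RNA per cell cannot be told apart.

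Both Trim63 probe sets carry the same source sequence in their names, so they are readings of 1 target and not independent evidence. In Affymetrix naming, the letter f marks probes that can match a family of similar transcripts, and whether this probe set also reads relatives of Trim63 was not tested. Trim54, a close relative in the sarcomere, gave 2000.8 and 1801.8 units in controls and 2212.4 and 2279.2 in unloaded pools (0.24, SE 0.09, adjusted p = 0.189) and did not pass. Neither Trim63 call held when any 1 of the 4 arrays was left out. The brighter probe set then gave log2 fold changes of -0.71 (without control pool 2) to -0.47 (without control pool 1), with adjusted p from 0.0644 to 0.193. The dimmer one gave -0.86 (without control pool 1) to -0.67 (without control pool 2), with adjusted p from 0.115 to 0.195. Without a filter on dim probe sets they gave adjusted p = 0.0945 and 0.119, and without a mean-variance trend in the fit the brighter one gave 0.0998.

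**Figure D1:**
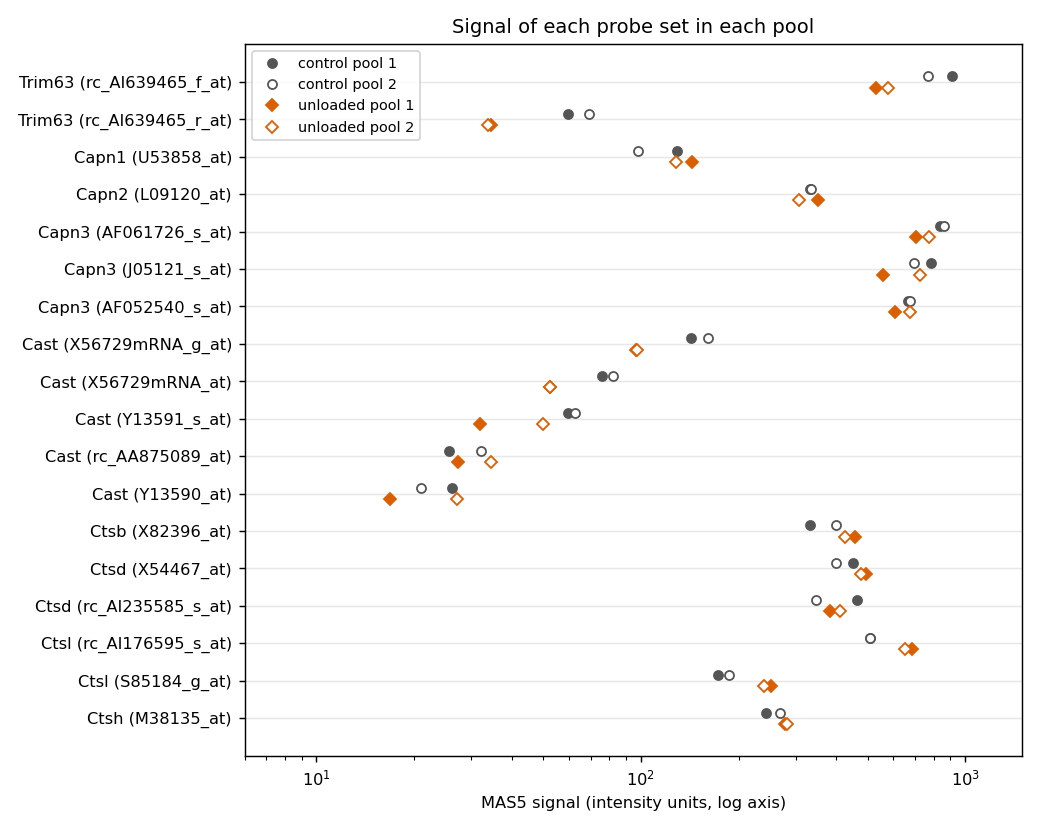
MAS5 signal (x axis, log scale) of each of the 18 probe sets (rows) in 2 control pools (grey circles) and 2 unloaded pools (orange diamonds), with pool 2 of each group drawn open. For both Trim63 probe sets the unloaded pools lie left of the controls, as at 528.7 and 579.5 against 911 and 769.2, and for both Ctsl probe sets they lie right of them.

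Calpains themselves gave small differences. Capn1, the catalytic subunit of the calpain active at low calcium (mu-calpain), gave 129.6 and 98.2 units in controls and 144.1 and 128.3 in unloaded pools, and the groups overlapped (0.25, SE 0.16, adjusted p = 0.415). Capn2, the catalytic subunit of m-calpain, which needs more calcium, gave 331.1 and 335.1 against 352.2 and 306.1 (-0.02, SE 0.11, adjusted p = 0.951). The unloaded Capn2 pools lay on either side of the controls. Intervals at 95% ran from -0.11 to 0.61 for Capn1 and from -0.28 to 0.24 for Capn2, so a doubling on this scale lay outside both.

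Capn3 encodes the muscle-specific calpain, which is anchored on titin in the sarcomere. All 3 of its probe sets had a lower unloaded mean and none passed. The probe set AF061726_s_at gave 833.7 and 859.7 in controls and 707.1 and 773.1 in unloaded pools, with no overlap (-0.19, SE 0.09, adjusted p = 0.296). On J05121_s_at the controls were at 783 and 692.8 and the unloaded pools at 557.5 and 724.1, so that the second unloaded pool lay between the controls (-0.21, SE 0.14, adjusted p = 0.439). On AF052540_s_at signals were 666.2 and 674.5 against 605.8 and 673.1, which overlap (-0.07, SE 0.10, adjusted p = 0.758). In each case unloaded pool 1 was the lowest of the 4 arrays.

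Cast was called lower on 1 of its 5 probe sets. On 3 of them, the called one included, both unloaded pools lay below both controls. The brightest, X56729mRNA_g_at, gave 142.8 and 160.6 units in controls and 96.3 and 97.3 in unloaded pools. The unloaded pools differed by little and lay below both controls, and the mean fell by 36.2%, from 151.7 ± 12.6 to 96.8 ± 0.707 (-0.60, SE 0.13, adjusted p = 0.0363). A second probe set of the same source sequence, X56729mRNA_at, gave 75.8 and 81.9 against 52.6 and 52.4, again without overlap (-0.51, SE 0.14, adjusted p = 0.0885). It did not pass, and sharing its source sequence with the called one it is not an independent reading.

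The probe set Y13591_s_at, from another Cast sequence, gave 59.4 and 62.8 in controls and 32 and 49.8 in unloaded pools (-0.51, SE 0.20, adjusted p = 0.201). Its groups did not overlap, but the unloaded pools were far apart. The 2 dimmest probe sets lay near the filter threshold of 21.0 units. On rc_AA875089_at the signals were 25.6 and 32.1 in controls and 27.3 and 34.5 in unloaded pools (0.08, SE 0.20), and on Y13590_at they were 26.2 and 21 against 16.9 and 27.1 (-0.09, SE 0.24). Both overlapped, with adjusted p of 0.884 and 0.887 and 95% intervals of -0.39 to 0.54 and -0.64 to 0.46. Whether Cast probe sets differ from each other in their change was not tested. With the mean over its 5 probe sets, Cast gave -0.33 (SE 0.16, adjusted p = 0.305) and did not pass.

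The Cast call was lost when any 1 array was left out, at log2 fold changes of -0.68 (without control pool 1) to -0.52 (without control pool 2) and adjusted p from 0.0981 to 0.198. It was also lost without a filter on dim probe sets (adjusted p = 0.0952) and without a mean-variance trend in the fit (0.0742). Over the 10 probe sets of the calpain system, 1 was called lower and 9 did not pass, with a median log2 fold change of -0.14 beside 0.00 over all tested probe sets. In 4 of the 10, all of Cast or Capn3, both unloaded pools lay below both controls, and in 0 above, where 25.3% and 25.5% of all tested probe sets did so.

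**Figure D2:**
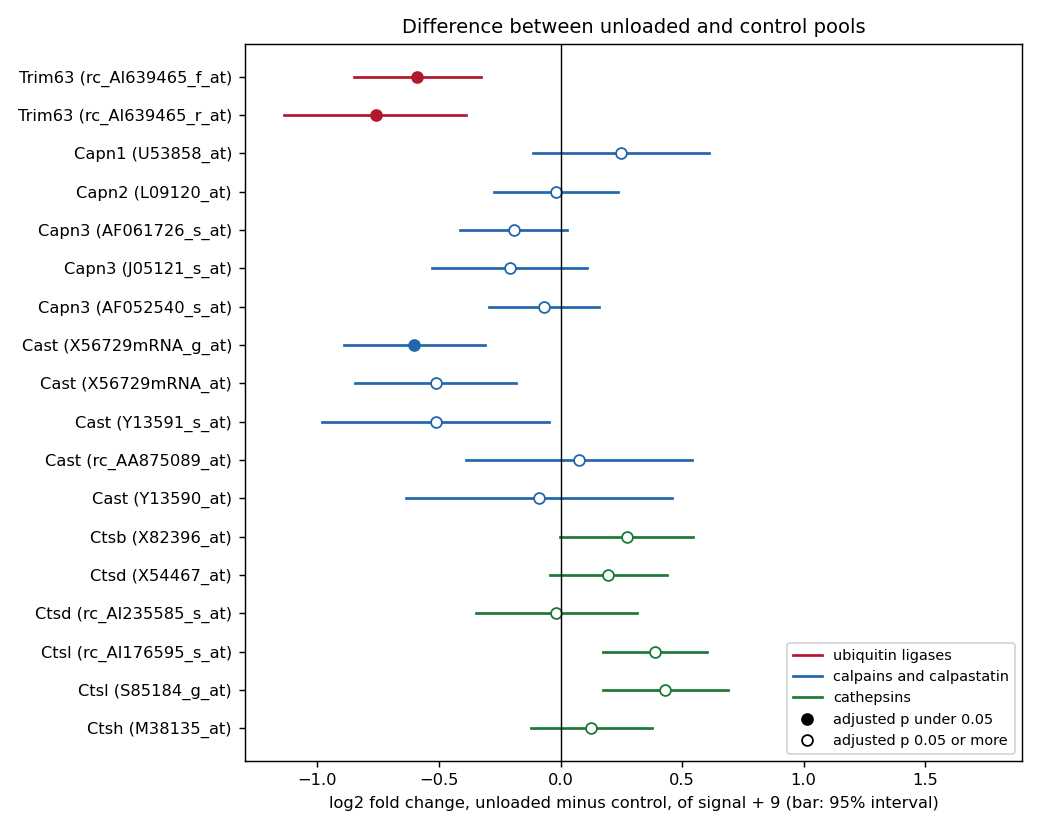
Log2 fold change of signal + 9, unloaded minus control (x axis), for each of the 18 probe sets (rows), with bars for the 95% interval and filled points for an adjusted p under 0.05. Trim63 at -0.59 and -0.76 and Cast at -0.60 are filled, and Ctsl lies right of 0 at 0.39 and 0.43 with open points.

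Among the cathepsins, Ctsl had the largest differences, and neither of its probe sets passed. Ctsl encodes cathepsin L, a cysteine protease of the lysosome and one of the transcripts known to rise in wasting muscle. On rc_AI176595_s_at the controls gave 509.6 and 507.4 units and the unloaded pools 685 and 652.1. The groups were well apart, at 508.5 ± 1.56 and 668.6 ± 23.3, a log2 fold change of 0.39 (SE 0.09, 95% interval 0.17 to 0.60, adjusted p = 0.0549). On S85184_g_at the signals were 172.9 and 186.9 against 252 and 239.2, also without overlap, with means of 179.9 ± 9.90 and 245.6 ± 9.05 (0.43, SE 0.11, 95% interval 0.17 to 0.69, adjusted p = 0.0677).

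The side of the threshold on which Ctsl fell moved with the settings. With a stricter filter, at the 60th percentile of mean signal, both probe sets passed (adjusted p = 0.0335 and 0.0415). With the mean over its 2 probe sets and a test over 3152 genes, Ctsl rose by 0.41 (SE 0.10, adjusted p = 0.0402), and Trim63 fell by 0.68 in that fit (SE 0.11, adjusted p = 0.00779). Each Ctsl probe set passed in 1 of 12 alternatives on single probe sets, with log2 fold changes from 0.35 to 0.42 and from 0.38 to 0.48 and adjusted p up to 0.286 and 0.329.

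Ctsb, cathepsin B, another lysosomal cysteine protease, gave 332.7 and 399.2 units in controls and 457.8 and 427 in unloaded pools. Both unloaded pools were above both controls, but the controls differed widely (0.27, SE 0.12, adjusted p = 0.242). Ctsh, cathepsin H, a cysteine protease that acts mainly as an aminopeptidase, gave 242.9 and 268.3 against 277.3 and 281.9 (0.13, SE 0.11, adjusted p = 0.575). The gap between the Ctsh groups was smaller than the gap between its control pools.

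Ctsd encodes cathepsin D, the main aspartic protease of the lysosome. On X54467_at it gave 449.2 and 398 in controls and 493.3 and 478 in unloaded pools, with no overlap (0.20, SE 0.10, adjusted p = 0.330). On rc_AI235585_s_at both unloaded pools, at 382.3 and 409.9, lay between the controls at 463 and 346.9 (-0.02, SE 0.14, adjusted p = 0.966). Neither passed, and the 95% intervals were -0.05 to 0.44 and -0.35 to 0.31.

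Over the 6 cathepsin probe sets the median log2 fold change was 0.23. In 5 of the 6, both unloaded pools lay above both controls, and in 0 below, where 25.5% of all tested probe sets lay above. Cathepsins are also abundant in macrophages. Of 26 leukocyte markers 16 had a probe set, 6 were bright enough to test and 10 were not, among them the pan-leukocyte marker Ptprc and the macrophage receptor Csf1r, and none of their probe sets was at 0 in all pools. The summed signal of the 6 was 804.4 and 1025.7 in controls and 1043.5 and 945.5 in unloaded pools, so the groups overlapped. C1qb, a complement subunit made by macrophages, gave 247.5 and 270.2 against 328.7 and 315.2 (0.31, SE 0.11, adjusted p = 0.159), Cd14 gave 101.3 and 110.5 against 86.4 and 84.9 (-0.28, SE 0.13, adjusted p = 0.273), and the part of such cells in the cathepsin signals was not tested.

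The neighbouring genes of these systems were read from lists, with each gene counted by its brightest probe set. Over all 3152 genes so counted, 4.70% were called (2.54% higher, 2.16% lower) and the median log2 fold change was 0.01. Of 75 pathway genes tested, 1 rose and 2 fell, with a median of 0.05. All 3 were in the list of upstream signals.

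In the calpain family 3 of 12 listed genes were tested and none passed, with a median of 0.22. Capns1, the small regulatory subunit shared by both ubiquitous calpains, gave 1180.6 and 1072.3 units in controls and 1344 and 1280.7 in unloaded pools (0.22, SE 0.09, adjusted p = 0.235). The groups did not overlap there, nor on another of its 3 probe sets, and they overlapped on the remaining one. Capn9 gave 29.5 and 8.7 against 25.2 and 33.5 (0.55, SE 0.35) and Capn6, a calpain that lacks the catalytic cysteine, 58.6 and 63.1 against 64.5 and 68.5 (0.11, SE 0.14), with adjusted p of 0.434 and 0.728.

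Of 17 other lysosomal proteases and inhibitors, 6 were tested, none passed, and all 6 had a positive log2 fold change, with a median of 0.17. Cst3, cystatin C, a secreted inhibitor of cysteine cathepsins, gave 2883.9 and 2925.7 in controls and 3448.1 and 3413.5 in unloaded pools (0.24, SE 0.08, adjusted p = 0.153). Both unloaded pools lay above both controls. The cathepsins Ctss (0.21, SE 0.13) and Ctsc (0.17, SE 0.11) and the saposin precursor Psap (0.17, SE 0.13) did not pass either, with adjusted p from 0.392 to 0.508. A dimmer Psap probe set had the opposite sign, at -0.44 (SE 0.15), and did not pass.

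Of 39 other lysosomal hydrolases, membrane proteins and proton pump subunits, 17 were tested and none passed, with 10 positive, 7 negative and a median of 0.04. The smallest p-values were those of the pump subunit Atp6v1d (0.30, SE 0.10), the acid lipase Lipa (0.26, SE 0.11), the acid phosphatase Acp2 (0.28, SE 0.13) and the membrane protein Scarb2 (-0.31, SE 0.16), with adjusted p from 0.160 to 0.302. A much dimmer Lipa probe set, with 7.1 and 11.3 units in controls and 45.1 and 35.3 in unloaded pools, passed (1.44, SE 0.23). Of 22 autophagy genes 7 were tested and none passed, with a median of 0.04. Becn1, a core autophagy factor, gave 0.35 (SE 0.13), Rab7a, which directs fusion with lysosomes, -0.31 (SE 0.11), the lipid kinase Pik3c3 -0.24 (SE 0.16) and the mitophagy receptor Bnip3l 0.08 (SE 0.10), with adjusted p from 0.167 to 0.719.

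Of 53 genes of ubiquitin, its conjugating enzymes and other ligases, 13 were tested and none passed, with 6 positive, 7 negative and a median of 0.00. Mdm2, the ligase of p53, gave 214.7 and 198 units in controls and 151.4 and 152.9 in unloaded pools (-0.42, SE 0.11, adjusted p = 0.0821). Ube2b, a ubiquitin-conjugating enzyme abundant in muscle, gave 1489.4 and 1537.5 against 1090.8 and 1314.4 (-0.34, SE 0.11, adjusted p = 0.135). The groups did not overlap for either gene. On M62388_g_at and rc_AA799612_at, Ube2b gave -0.34 (SE 0.12) and -0.06 (SE 0.09), and neither passed. Nedd4, a ligase of membrane proteins, gave -0.37 (SE 0.14, adjusted p = 0.191). Among 7 tested caspase genes none passed, with a median of -0.01. Casp2 gave 37.2 and 41.5 against 63.1 and 79.1 (0.72, SE 0.17, adjusted p = 0.0520), and Bak1 (0.37, SE 0.14), Bcl2l1 (-0.25, SE 0.14) and Casp6 (-0.38, SE 0.21), which act in cell death, had adjusted p from 0.191 to 0.353. On its probe set U72350_at, Bcl2l1 gave 125.6 and 106.6 against 76.2 and 72.4 (-0.58, SE 0.14, adjusted p = 0.0555). On S78284_s_at it gave -0.26 (SE 0.145), and neither passed.

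**Figure D3:**
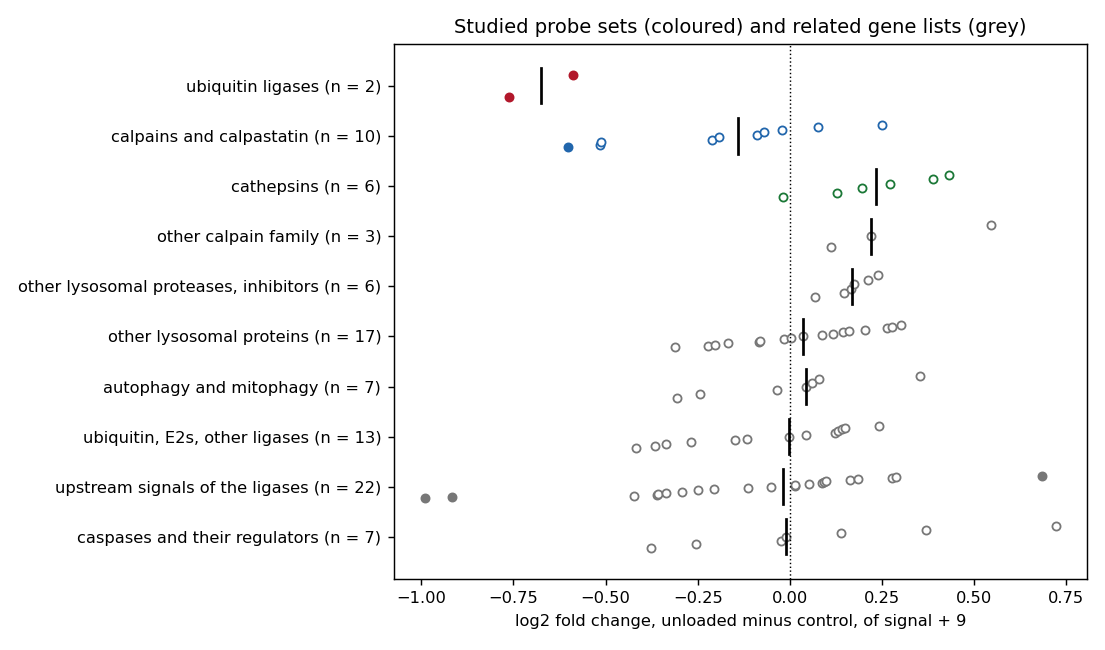
Log2 fold change of signal + 9, unloaded minus control (x axis), for the studied probe sets by class (coloured, 1 point per probe set) and for the related gene lists (grey, 1 point per gene by its brightest probe set), with a black bar at each median and filled points for an adjusted p under 0.05. The cathepsin median is 0.23 and the calpain system median -0.14, and among the grey lists the filled points are Myog, Irs1 and Irs2.

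Of 36 listed upstream signals of the muscle ligases, 22 were tested, with 1 higher, 2 lower and a median of -0.02. Myog, a myogenic factor known to bind the promoters of both muscle ligases, gave 218.6 and 190.7 units in controls and rose to 337 and 330.4 in unloaded pools (0.68, SE 0.11, adjusted p = 0.0143). Its direction was opposite to that of Trim63 in these pools, and a link between the levels of these genes was not tested. Irs1, an adaptor of the insulin and IGF receptors, fell from 79.2 and 64.9 to 30.1 and 37.8 (-0.92, SE 0.18, adjusted p = 0.0271). The related Irs2 fell from 133 and 95.2 to 45.6 and 59.8 on its brightest probe set (-0.99, SE 0.19, adjusted p = 0.0283). Its 2 other probe sets also fell, AF083418_at from 118.7 and 98.9 to 8.4 and 5.9 (-2.87, SE 0.19, adjusted p = 1.89e-04) and AF087674_at from 104.4 and 47.6 to 16.1 and 16.7 (-1.66, SE 0.30, adjusted p = 0.0222). Whether the Irs2 probe sets differ in their change was not tested; with the larger offset of 34.8 units, which shrinks changes of dim signals, they gave -0.76, -1.77 and -1.06. The calls of Irs1 and of the brightest Irs2 probe set were lost when any 1 of the 4 arrays was left out, that of AF083418_at was kept in each case (adjusted p up to 0.0107), that of AF087674_at was kept only without control pool 2, and that of Myog was lost without control pool 2, unloaded pool 1 or unloaded pool 2.

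Foxo1, a transcription factor known to act on Trim63, gave 63.3 and 48.3 in controls and 81 and 59.6 in unloaded pools, which overlap (0.29, SE 0.19, adjusted p = 0.455). Nr3c1, the glucocorticoid receptor, through which glucocorticoids raise the muscle ligases, gave 32.1 and 26.9 against 31.1 and 25.3 (-0.05, SE 0.20, adjusted p = 0.926). On rc_AA893618_s_at, Nr3c1 gave 34.9 and 24.7 against 15.1 and 27.6 (-0.37, SE 0.26, adjusted p = 0.478). Akt1, the kinase that holds FoxO factors out of the nucleus, gave 458.8 and 423.7 against 547.6 and 447 (0.16, SE 0.12, adjusted p = 0.512). None of these 3 passed; they were named here for their known roles, after their values were seen.

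**Figure D4:**
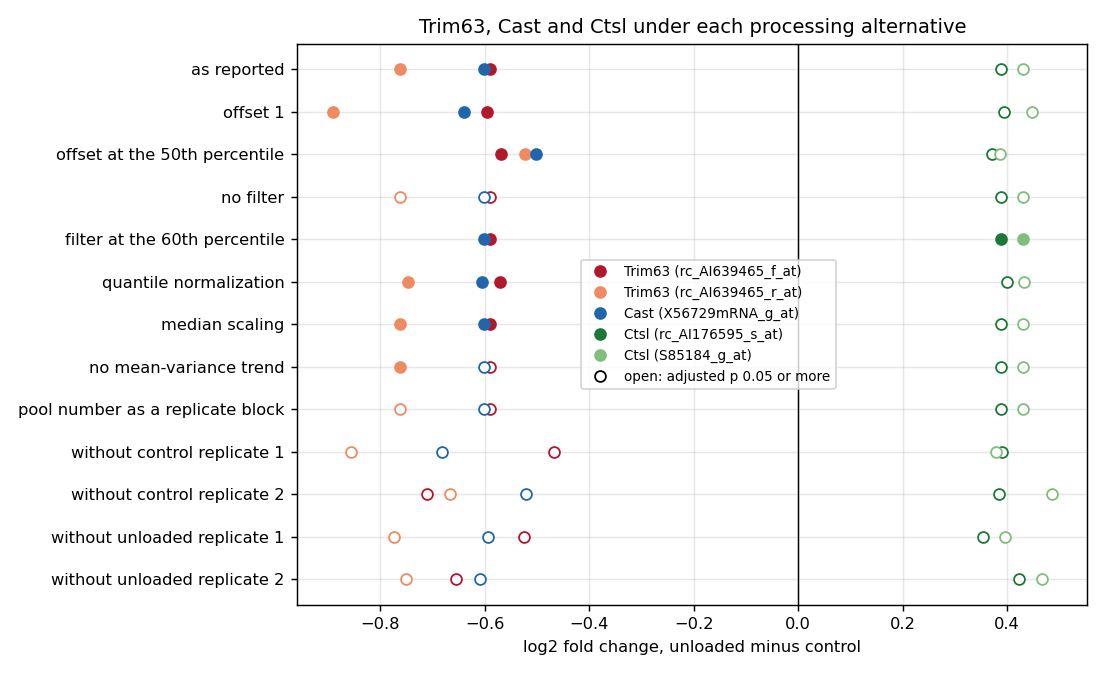
Log2 fold change, unloaded minus control (x axis), of both Trim63, the called Cast and both Ctsl probe sets under the reported settings and each of 12 alternatives (rows), with open points for an adjusted p of 0.05 or more. Trim63 and Cast stay left of 0 and Ctsl right of 0 in every row (the dimmer Trim63 probe set has no value under the stricter filter), while all points are open in the 4 rows that leave out an array.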

How the data were processed

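Soleus RNA was read on 4 arrays, 2 per group, each from a pool of rats. The authors deposited 1 table of intensity values (MAS5 signals on a linear scale, with no version named), per the submitters' processing notes. The trimmed mean was 150.2 or 150.3 on every array and the median signal 33.9 to 35.6. Detection calls were not used, and at low brightness such signals carry more noise. Probe sets were named through the platform annotation, with symbols updated by gene ID to RefSeq (assembly GRCr8): 7006 had 1 symbol (6985 matched RefSeq), 308 several and 1426 none, beside 59 Affymetrix controls that were left out.

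Signals were taken as log2(signal + 9), 9 being the 25th percentile of all signals, so changes of dim transcripts are understated. Testing was limited to the 5257 probe sets whose mean signal reached 21.0 (40th percentile). The test was that of limma 3.58.1, run under R 4.3.3 (lmFit, eBayes with a mean-variance trend, 2 residual and 5.80 prior degrees of freedom) and Benjamini-Hochberg adjustment. The steps were tested on simulated data of 2 against 2 arrays, with 200 changed probe sets in each of 10 runs. On average 34% of 1.5-fold and 81.4% of 2-fold changes were recovered, and 5.41% of calls were false. Noise was drawn as normal, with the spread that the fit itself assumes, so these shares hold under the test's own assumptions. Error rates on the real pools were not tested. Alternatives were other offsets, filters, scalings and thresholds, no trend, a replicate block, each array left out, and gene means. Every probe set annotated to a member gene is reported, while for genes of the related lists other probe sets are given only in part. Of each related list the called genes, or otherwise up to 4 with the smallest p, are named. Members and lists were chosen with earlier results of these data known. Figures were drawn with matplotlib 3.10.9.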

Additional observations from a re-analysis of the deposited data

How the results depend on the processing

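Of 212 values of single probe sets under alternatives, 180 kept their direction and side of the threshold, 20 lost a call, 2 gained one (both Ctsl) and 10 changed sign, all 10 in probe sets that were not called. Sign changes were seen for Capn2 (0.003 with quantile normalization, and -0.119 to 0.078 with an array left out), Capn3 AF052540_s_at (-0.144 to 0.006), Cast rc_AA875089_at (-0.055 to 0.206), Cast Y13590_at (-0.327 to 0.152) and Ctsd rc_AI235585_s_at (0.017 with quantile normalization, -0.221 to 0.186). The members called lower numbered 3, against 0 without a filter, 1 without a mean-variance trend, 0 whichever array was left out (0 to 0), and 1 gene with gene means. Of the 18 members, 2 were higher and 5 lower at an unadjusted p under 0.05 (7 in all, beside 20.8% of all tested probe sets). By limma's adjusted p the members called higher numbered 0, against 2 with the stricter filter, 2 at an adjusted p under 0.10 and 1 gene with gene means. Over all tested probe sets, 136 were higher and 140 lower, against 42 and 48 without a filter, 52 and 61 without a trend, 22 to 43 and 38 to 55 with an array left out, 226 and 232 at an adjusted p under 0.10, and 88 lower genes with gene means. With gene means 100 genes were higher. The gene-mean counts are out of 3152 genes, and the 136 and 140 are out of 5257 probe sets. A smaller count with gene means is therefore not by itself a loss of calls. Of the pathway genes, 1 was higher and 2 lower, against 0 and 0 without a filter or without a trend. With median scaling 2 were higher. With the stricter filter 1 was lower, as Irs1 was too dim to be tested there, while Irs2 stayed called (limma adjusted p = 0.0109). The cause of these shifts was not tested.

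The groups share pool numbers, but nothing in the labels ties them, and deviations of same-numbered pools correlated at -0.04. With the pool number as a replicate block, 0 members were called lower in place of 3, and 0 pathway genes in place of 2, while Myog was called higher (0.68, adjusted p = 0.0352). Over all tested probe sets 78 were then higher and 87 lower, in place of 136 and 140.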

Other observations

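The probe set S85184_at carries in its name the source sequence of a Ctsl probe set, S85184_g_at, but has no gene in the annotation used and is not named here. It gave 75.4 and 84.2 units in the control pools and 171.3 and 158.9 in the unloaded pools, with means of 79.8 ± 6.22 and 165.1 ± 8.77 (n = 2 pools each). Its log2 fold change was 0.97 (SE 0.13, limma adjusted p = 0.00559), past the threshold, where the annotated probe set gave 0.43 (SE 0.11, adjusted p = 0.0677). It was looked up after the values of the Ctsl probe sets were seen, and whether it reads Ctsl was not tested.

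Casp2 had a second probe set, with 37.3 and 29.1 units in controls and 52.5 and 50.7 in unloaded pools (0.53, SE 0.18). On both Casp2 probe sets both unloaded pools lay above both controls, and neither passed.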
